A study of Mus musculus with 6 samples.

Results

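Car1 and Car2 encode the cytosolic carbonic anhydrases of the mouse red cell, and they are the 2 genes described here, out of 17691 in the tables. Carbonic anhydrases are zinc enzymes that interconvert carbon dioxide and bicarbonate. In the red cell they let carbon dioxide from tissues be carried as bicarbonate, which the band 3 exchanger Slc4a1 then swaps for chloride across the membrane. Car2 encodes the fast isozyme, which is also used by osteoclasts and kidney cells. Car1 encodes a slower isozyme that is abundant in red cells and is also made in the colon. In mouse marrow transcripts of both genes already appear in committed erythroid progenitors.

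RNA was measured in 6 libraries of C57BL/6J fetal liver erythroblasts, the nucleated precursors of red cells. Before culture the cells were selected for lack of TER119, a surface antigen of more mature erythroid cells, and all of them then grew with erythropoietin (Epo), the hormone that drives red cell production. The CDs group (n = 3) received carbon dots made from the plant Codonopsis pilosula at 1 ug/ml for 30 h, and the untreated group (n = 3) received none. The labels do not say whether the numbered replicates were separate cultures, litters or days, nor give the embryonic age or whether livers were pooled, so the spread between libraries may be technical in part. Both genes were chosen by their CDs and untreated values in earlier results of these data, in which Car1 was lower in each CDs library than in the untreated library of the same number. Their CDs values against untreated values are therefore a description and carry no test.

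Library totals ran from 17695997 to 20066581 expected counts, the reads per gene as estimated by the authors. The main axis of difference between libraries, the first principal component of log2 CPM (counts scaled to the library total after TMM adjustment), took 87.6% of the variance. Its scores were -52.8, 16.0 and 97.5 in CDs 1 to 3 and -89.9, -47.0 and 76.1 in untreated 1 to 3. The library numbered 3 had the highest score in each group. The erythroid label holds in the data: Hba-a1, an adult alpha globin, lay between 60806 and 74788 FPKM (a level scaled to transcript length and library size) over all 6 libraries, and Slc4a1 between 1628 and 2131 FPKM. Macrophage markers moved along the same axis. Their 17 genes summed to 432, 1829 and 6560 CPM in CDs 1 to 3 and 185, 552 and 5054 CPM in untreated 1 to 3, and 0 of the 17 were at 0 throughout. EdgeR called 0 of the 15 tested, with or without a term for the replicate number, and DESeq2 with that term called 12 as higher and 1, Cd5l, as lower, where it called 7.69% of all tested genes as higher and 2.08% as lower. The part of macrophages in the carbonic anhydrase values was not tested.

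Car1 (Entrez 12346) lies on chromosome 3, 14766214 to 14808365 in GRCm38.p6, on the minus strand, and Car2 (Entrez 12349) on the same chromosome, 14886269 to 14900770, on the plus strand, with 77903 bases between them. The authors' FPKM and counts gave one length for each gene in all 6 libraries, 1190 to 1193 bases for Car1 and 1709 to 1713 bases for Car2. The count and FPKM tables therefore differ for these genes only by gene length and the scaling of each library. The longest annotated coding transcripts, Car1-203 with 8 exons and Car2-201 with 7, measure 1194 and 1788 bases. Of the 1145 windows of 50 bases in Car1-203, the read length used, 166 also occur in Gm5843, a pseudogene of the same cluster (14722415 to 14729018). Car1 had whole expected counts in all 6 libraries, which show no division of its reads. Gm5843 was not analysed here, and whether reads from it were counted in Car1 was not tested. None of the 1739 such windows in Car2-201 (0) occurs in a transcript of another gene.

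Car1 measured 95.7, 81.0 and 30.0 FPKM in CDs 1 to 3, against 173, 147 and 60.6 FPKM in untreated 1 to 3. Each CDs library was lower than the untreated library of its number, while the groups as wholes overlapped, because untreated 3 lay below CDs 1 and CDs 2. The group means were 68.9 ± 34.5 FPKM with CDs and 127 ± 58.8 FPKM untreated (SD, n = 3 each). Behind them stood 2018, 1932 and 711 expected counts in CDs 1 to 3 and 4111, 3479 and 1451 in untreated 1 to 3. Within pairs the CDs library held 0.544, 0.546 and 0.484 times the CPM of its untreated partner, so the ratio was nearly the same at a high level of Car1 (numbers 1 and 2) and at a low one (number 3).

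On the log2 CPM scale these differences in Car1 were -0.88, -0.87 and -1.05, a mean of -0.93 ± 0.10 (SD, n = 3 pairs). The edgeR fit without a replicate block, which counts the spread between numbers as noise, gave a log2 fold change of -0.90 ± 0.60 (SE). With the replicate number as a block it gave -0.93 ± 0.06, so that the value stayed in place and its error shrank. The FPKM table gave -0.85, -0.85 and -1.01 by pair. Without CDs 3 the log2 fold change of the unblocked fit was -0.53, and without untreated 1 it was -0.60. Without both libraries numbered 3 it was -0.90.

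Car2 measured 1778, 1602 and 959 FPKM in CDs 1 to 3, against 1710, 1740 and 1170 FPKM in untreated 1 to 3. CDs 1 was slightly above its partner and CDs 2 and CDs 3 were below theirs, and the groups overlapped. The means were 1446 ± 431 FPKM with CDs and 1540 ± 321 FPKM untreated (SD, n = 3 each), a difference smaller than either SD. By pair the log2 CPM differences of Car2 were 0.03, -0.14 and -0.32, and the fits gave -0.11 ± 0.33 (SE) without the block and -0.14 ± 0.09 with it. Without CDs 3 the log2 fold change of Car2 turned to 0.13.

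**Figure D1:**
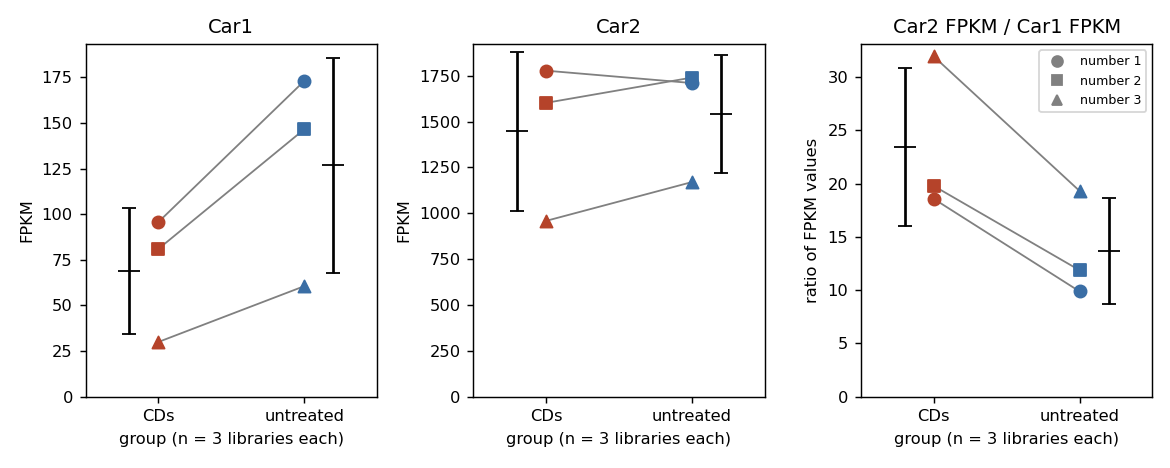
FPKM of Car1 (left) and Car2 (middle) and their ratio (right) in the 3 CDs and 3 untreated libraries. Grey lines join libraries of the same number, symbols give the number, and the bars beside them are mean ± SD (n = 3). Car1 lies lower in the CDs library of every pair and the ratio lies higher in every pair, while Car2 is higher in CDs 1 and lower in CDs 2 and CDs 3 than in the untreated partner.

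Per length Car2 was by far the more abundant isozyme transcript. By mean FPKM it ranked 36th of all 17691 genes and Car1 ranked 792nd. Car2 took 0.164% to 0.304% of the counts in CDs libraries and 0.200% to 0.298% in untreated libraries, and Car1 took 0.00357% to 0.0114% with CDs and 0.00723% to 0.0206% untreated. The ratio of Car2 to Car1 in FPKM was 18.6, 19.8 and 31.9 in CDs 1 to 3, against 9.89, 11.9 and 19.3 in untreated 1 to 3. It was higher in the CDs library of each pair, and untreated 3 lay between CDs 1 and CDs 2. In bulk RNA fewer cells that hold a transcript and less of it per cell cannot be told apart.

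Among the 12283 genes tested, edgeR's quasi-likelihood test with Benjamini-Hochberg adjustment called 0 at an adjusted p under 0.05 (0%), while 127 (1.03%) had an unadjusted p under 0.05. With the replicate block it called 5 (0.0407%), 2 as lower (0.0163%) and 3 as higher (0.0244%). Car1 was one of the 2, but it was chosen by these same values, so this call is no test of Car1. DESeq2 called 14 genes (0.114%) without the block, 5 as lower (0.0407%) and 9 as higher (0.0733%). With the block it called 1200 (9.77%), 255 as lower (2.08%) and 945 as higher (7.69%). In 26.2% of the tested genes the CDs library was lower in all 3 pairs, as it was for Car1, and in 30.2% it was higher in all 3. Ranked by the difference within a pair, 123, 89 and 95 of the 12283 genes lay below Car1 in pairs 1 to 3, or 1.0%, 0.725% and 0.773%. For Car2 these shares were 49.1%, 29.2% and 13.3%. Groups without overlap, which neither Car1 nor Car2 showed, occurred in 4.7% of the tested genes. A CDs value lower by at least 0.8 on the log2 scale in all 3 pairs, a limit set after seeing the values of Car1, occurred in 17 genes (0.138%). Car1, with a mean of 118 CPM, was the one with the most reads behind it, and the sterol exporter gene Abcg1 (98.4 CPM) was next.

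Late erythroid genes gave the first measure against which Car1 was read. This list of 36 genes of the red cell membrane and cytosol, of which 35 were tested, had a median log2 fold change of -0.08, against 0.01 over all genes tested. By pair its median differences were -0.02, -0.10 and -0.19. In each pair 0 of the 35 genes lay below Car1, where 1.0%, 0.725% and 0.773% of all tested genes did. A count of 0 among 35 is near those shares. The lowest of the 35 were at -0.37, -0.33 and -0.59. Relative to the list median Car1 lay at -0.86, -0.77 and -0.86, a mean of -0.83 ± 0.05 (SD, n = 3 pairs). Car2 lay inside the list, at 0.05, -0.03 and -0.13 relative to its median, with 21, 14 and 5 of the 35 genes below it.

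The list itself held 17 genes that were lower in all 3 pairs (26.2% of all tested genes were) and 6 that were higher in all 3 (30.2% were). None (0) was called by edgeR, with the block or without, and DESeq2 with the block called 3 of the 35, where it called 9.77% of all genes. Of these 3, Icam4, an adhesion molecule of erythroblasts, was lower (-0.29 ± 0.06, edgeR with the block) and Tent5c and Xpo7, a nuclear exporter, were higher (0.29 ± 0.06 and 0.35 ± 0.08). The log2 fold changes of the unblocked fit were lowest for the water channel gene Aqp1 (-0.37 ± 0.45), the glucose transporter gene Slc2a4 (-0.28 ± 0.17) and Icam4 (-0.28 ± 0.35). They were highest for Xpo7 (0.36 ± 0.41), Tent5c (0.29 ± 0.21) and Tmcc2 (0.27 ± 0.37).

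Slc4a1, Rhag and Epb42, membrane proteins of the red cell, had log2 fold changes closer to 0 than Car1. Slc4a1, which carries the bicarbonate that the enzyme makes, measured 2131, 1947 and 1628 FPKM in CDs 1 to 3 and 1928, 2027 and 1755 FPKM in untreated 1 to 3 (log2 fold change -0.02 ± 0.20). The CDs library was higher in pair 1 and lower in the other pairs. Rhag, the Rh-associated glycoprotein, a channel for ammonia and possibly carbon dioxide, measured 308, 295 and 224 FPKM with CDs and 319, 332 and 263 FPKM untreated (-0.17 ± 0.21), lower in all 3 pairs. Epb42, which links band 3 to the skeleton, had a log2 fold change of -0.05 ± 0.19.

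**Figure D2:**
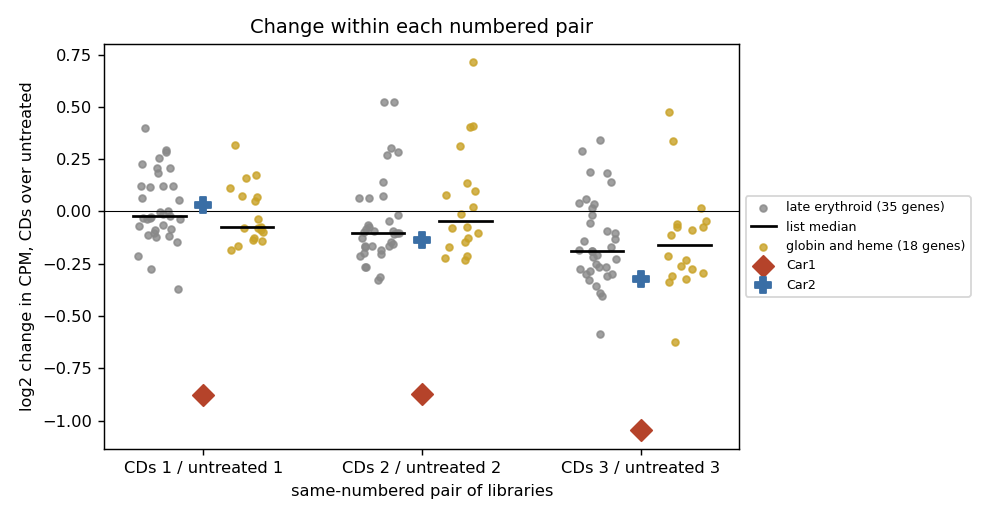
Log2 change in CPM, CDs over untreated, within each numbered pair, for Car1 (diamond), Car2 (cross), the 35 late erythroid genes tested (grey) and the 18 globin and heme genes (yellow), with list medians as black bars. Car1 lies below every gene of both lists in all 3 pairs, and Car2 lies among them. Of all tested genes 1.0%, 0.725% and 0.773% lay below Car1 in pairs 1 to 3.

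Globin and heme genes gave the same picture for Car1. Of 19 genes named, 18 were tested and Ahsp was not analysed here. Their median log2 fold change was -0.05, with pair medians of -0.08, -0.04 and -0.16. Of the 18, 6 were lower and 1 higher in all 3 pairs (26.2% and 30.2% of all tested genes were). Car1 lay below 18 of 18 in each pair, where 1.0%, 0.725% and 0.773% of all tested genes lay below it. Relative to the list median Car1 had a mean of -0.84 ± 0.04 (SD, n = 3 pairs). No gene (0 of 18) was called by edgeR or DESeq2, with the block or without. Hbb-bs, an adult beta globin, had a log2 fold change of -0.04 ± 0.19, Hba-a1 -0.05 ± 0.19, and Alas2, which starts heme synthesis in erythroid cells, 0.04 ± 0.13.

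The lowest values of this list were those of the mitochondrial glycine carrier gene Slc25a38 (-0.23 ± 0.29) and the heme enzymes Ppox (-0.21 ± 0.18) and Uros (-0.18 ± 0.22). The highest were those of the embryonic globins Hbb-y (0.40 ± 0.48) and Hbb-bh1 (0.34 ± 0.76) and of Hba-a2 (0.10 ± 0.17). Hba-a1 and Hba-a2 are near-identical copies whose reads could be divided between them. Hbb-bh1 measured 128, 57.8 and 30.1 FPKM in CDs 1 to 3 and 101, 43.2 and 23.3 FPKM in untreated 1 to 3. Like Car1 it was highest in number 1 and lowest in number 3 of both groups, yet its CDs library was the higher one in every pair (0.32, 0.40 and 0.34 on the log2 scale).

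The library gradient gave the second measure. Car1 was lower in libraries with a higher score on the first principal component. For Car1 the log2 difference of CDs 3 minus CDs 1 was -1.75, and that of untreated 3 minus untreated 1 was -1.58. For Car2 these differences were -0.97 with CDs and -0.62 untreated, and the late erythroid medians were -0.52 with CDs and -0.33 untreated. The libraries numbered 1 and 2 lay closer together: number 2 minus number 1 was -0.25 with CDs and -0.26 untreated for Car1, and -0.16 with CDs and 0.0086 untreated for Car2. The slope of log2 CPM within groups was -1.07 per 100 units of score for Car1, -0.51 for Car2 and a median of -0.27 for the late erythroid genes, whose steepest was Icam4 at -0.56. Among 8341 tested genes with a mean of at least 10 CPM, 28 (0.336%) had a steeper downward slope than Car1 and 850 (10.2%) a steeper one than Car2. Taken within one group, the slope of Car1 was -1.19 with CDs and -0.98 untreated, and that of Car2 was -0.66 with CDs and -0.40 untreated, each from 3 libraries.

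In each pair the CDs library also had the higher score, by 37.0, 63.0 and 21.3 units. The within-group slope times these score differences gives -0.40, -0.67 and -0.23 for Car1, against the -0.88, -0.87 and -1.05 observed. The remainder was -0.48, -0.20 and -0.82, a mean of -0.50 ± 0.31 (SD, n = 3 pairs). For Car2 the remainder was 0.22, 0.19 and -0.21, and for the late erythroid genes the median remainders were 0.07, 0.08 and -0.11. The remainder of Car1 was thus below 0 in all 3 pairs, and that of Car2 changed sign between pairs. These remainders take a straight line, and the slope of Car1 leans on the libraries numbered 3. From number 1 to number 2 Car1 changed by -0.25 with CDs and -0.26 untreated. From number 1 to number 3 it changed by -1.75 with CDs and -1.58 untreated. The size of each remainder depends on that line.

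With the score as a covariate in edgeR, an alternative chosen after seeing the data, the log2 fold change of Car1 was -0.48 ± 0.16 and that of Car2 0.07 ± 0.14. With the macrophage marker score in its place they were -0.46 ± 0.17 and 0.07 ± 0.16. CDs 1 and untreated 2 had nearly the same score, -52.8 and -47.0. Car1 measured 115 CPM in CDs 1 and 178 CPM in untreated 2, a log2 difference of -0.62, and Car2 measured 3079 CPM in CDs 1 and 3033 CPM in untreated 2. These 2 libraries carry different numbers, and the part of the number in this difference was not tested.

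**Figure D3:**
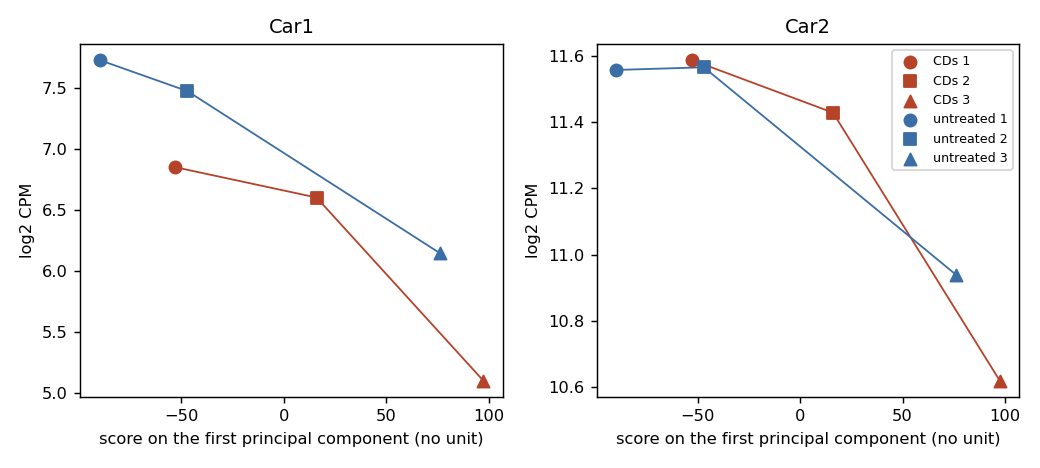
Log2 CPM of Car1 (left) and Car2 (right) against the score on the first principal component of the 6 libraries. Lines join libraries of one group and symbols give the replicate number. Car1 is lower at higher scores in both groups and the CDs line lies below the untreated one over the scores that both groups cover. The Car2 lines cross.

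Erythroid transcription factors control the genes of the red cell program, and 11 of the 16 tested had a log2 fold change below 0. Among all tested genes 48.1% were below 0. Of the 16, 5 were lower and 1 was higher in all 3 pairs, and the median log2 fold change was -0.13 (pair medians 0.02, -0.19 and -0.24). EdgeR called 0 of 16 with the block or without, and DESeq2 with the block called 3, all lower (Bcl11a, Gfi1b and Ldb1). Over all tested genes it called 2.08% as lower, and 26.2% were lower and 30.2% higher in all 3 pairs. The lowest were Bcl11a, a repressor of embryonic globins (-0.40 ± 0.36), Ldb1, which bridges enhancer complexes (-0.35 ± 0.35), and the thyroid hormone receptor gene Thra (-0.31 ± 0.36). The highest were Nfia (0.39 ± 0.78), Cbfa2t3 (0.22 ± 0.21) and Foxo3 (0.15 ± 0.17). Nfia rested on 3 to 27 expected counts per library, with pair differences of -1.35, 0.98 and 0.70. Gata1, the master erythroid factor, measured 273, 229 and 136 FPKM in CDs 1 to 3 and 268, 263 and 181 FPKM in untreated 1 to 3 (-0.18 ± 0.34). Klf1, an activator of adult red cell genes, measured 447, 382 and 194 FPKM with CDs and 465, 441 and 258 FPKM untreated (-0.21 ± 0.41), and had the steepest slope of the list on the gradient, -0.70 per 100 units.

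Early erythroid and progenitor genes had 11 of 14 log2 fold changes above 0, where 48.1% of all tested genes were below 0. The 14 tested had a median log2 fold change of 0.32, with pair medians of 0.44, 0.65 and 0.05, and 7 were higher and 1 was lower in all 3 pairs. EdgeR called 0 of 14, and DESeq2 with the block called 4, all higher (Cd34, Cd44, Fli1 and Spi1). Over all tested genes it called 7.69% as higher, and 30.2% were higher and 26.2% lower in all 3 pairs. The 4 called genes had upward slopes on the gradient, from 1.09 per 100 units for Cd44 to 2.15 for Spi1, while Epor, Myc and Tfrc sloped downward (-0.62, -0.64 and -0.69). Spi1, a myeloid factor, measured 22.0, 68.9 and 196 FPKM in CDs 1 to 3 and 11.1, 23.6 and 157 FPKM in untreated 1 to 3, and was highest in the libraries with the highest macrophage marker sums. Cd34, a stem and endothelial cell antigen, had the highest value (1.11 ± 0.88), then Fli1 (0.76 ± 1.06) and Meis1 (0.60 ± 0.44). Epor (-0.17 ± 0.36), Myc (-0.15 ± 0.38) and Gata2 (-0.12 ± 0.65) had the lowest. Kit, a receptor of early progenitors, had 0.33 ± 0.26, and Tfrc, the transferrin receptor, 0.02 ± 0.41. Of this list 4 genes had a downward slope on the gradient, and its median slope was 0.71 per 100 units, against -1.07 for Car1.

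Genes that move acid, bicarbonate and gases were the functional neighbours of the enzyme. Of 25 named, 22 were tested, with a median log2 fold change of 0.03. Slc4a1, Aqp1, Rhag and Rhd also stand in the late erythroid list. In this set 5 were lower and 9 higher in all 3 pairs, where 26.2% of all tested genes were lower and 30.2% higher. EdgeR called 0 of 22, with the block or without. DESeq2 called Slc26a1, a sulfate and anion exchanger, as lower without and with the block. With the block it also called Atp6v1a, a subunit of the vacuolar proton pump, as higher. Over all tested genes DESeq2 called 9.77% with the block and 0.114% without.

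Slc26a1 measured 0.28, 0.68 and 0.49 FPKM in CDs 1 to 3 and 1.44, 1.78 and 1.91 FPKM in untreated 1 to 3 (-1.52 ± 0.22). Its groups did not overlap, as in 4.7% of tested genes, while those of Car1 did, and its FPKM was far below that of Car1 in every library. Bsg, the chaperone of lactate transporters, had -0.18 ± 0.21. At the upper end stood the proton channel gene Hvcn1 (0.52 ± 0.93), the anion exchanger gene Slc26a6 (0.47 ± 0.67) and Atp6v1a (0.40 ± 0.33).

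The carbonic anhydrase family has 16 genes in the tables, and 8 of them passed the filter on low counts, Car1 and Car2 among them. Of the other 6 tested, edgeR called 0 with the block or without, and DESeq2 called 0 and with the block gave no adjusted p for 4 of them, whose counts were low. In all 3 pairs 1 was lower and 2 were higher, where 26.2% of all tested genes were lower and 30.2% higher. Car13, a cytosolic isozyme and the third most abundant, measured 9.29, 13.0 and 18.8 FPKM in CDs 1 to 3 and 10.1, 13.0 and 16.8 FPKM in untreated 1 to 3 (0.02 ± 0.30). In both groups Car13 was lowest in number 1 and highest in number 3, where Car1 was lowest. Car9, a membrane isozyme induced by hypoxia, measured 0.37, 0.70 and 2.34 FPKM with CDs and 0.15, 0.21 and 1.68 FPKM untreated (0.66 ± 1.12). It was higher in the CDs library of each pair and highest in CDs 3 and untreated 3, which also had the highest macrophage marker sums.

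The remaining tested members lay below 1 FPKM in every library. These were the mitochondrial isozymes Car5a (-0.08 ± 0.38) and Car5b (0.43 ± 0.25), the membrane-anchored Car15 (-0.26 ± 0.26) and Car8, which lacks catalytic activity (-0.36 ± 1.15). The other 8 members did not pass the filter, with at most 10 expected counts in any library. Car11 had 0 counts in all 6, which allows up to 0.15 to 0.17 CPM per library when a floor of 3 counts is used, for counting error only.

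**Figure D4:**
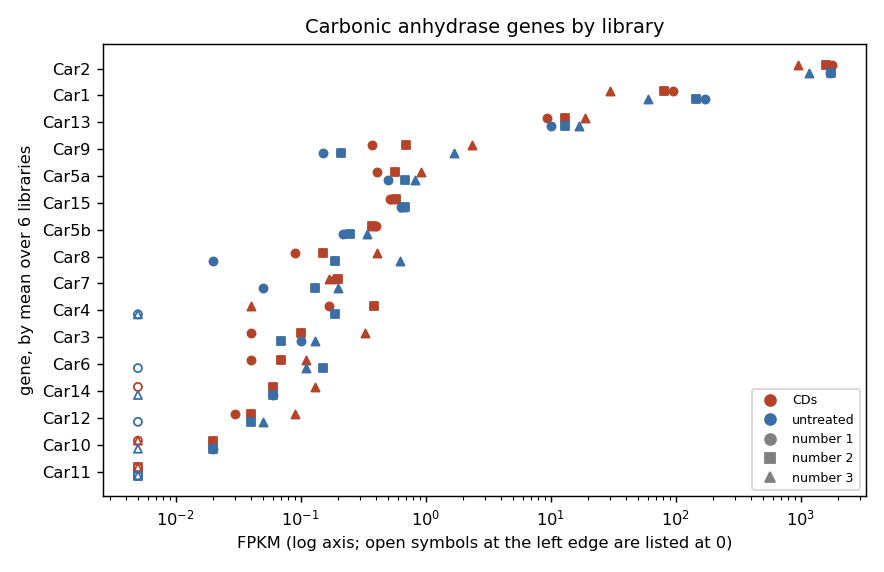
FPKM of the 16 carbonic anhydrase genes in each library on a log axis, CDs above untreated within each row, ordered by the mean over 6 libraries. Open symbols at the left edge are values listed at 0. Car2, Car1 and Car13 stand above the rest, and of these Car1 is the one with lower CDs values in every pair.

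Car13, Car1, Car3 and Car2 form a gene cluster on chromosome 3. Within 500 kb of it 24 genes are annotated, of which 10 were in the tables used here and 7 were tested. Car3, the isozyme of muscle and fat, lies between Car1 and Car2 and had 1 to 10 expected counts per library, a gene close to silent between abundant neighbours. Beyond Car13, Rbis, a ribosome biogenesis factor, measured 108, 116 and 72.4 FPKM in CDs 1 to 3 and 152, 151 and 86.0 FPKM in untreated 1 to 3. It was lower in each pair (-0.49, -0.41 and -0.24), was called by DESeq2 with the block (adjusted p = 0.0314) and not by edgeR with it (adjusted p = 0.0916) or without it (adjusted p = 0.994). Its annotated end overlaps that of E2f5, a cell cycle factor (0.08 ± 0.19), from base 14606289 to 14606309. That stretch is shorter than the 50-base reads, and both genes had whole expected counts in every library. Lrrcc1, a centrosome protein gene, had 0.02 ± 0.14 and Sirpb1a, a myeloid receptor gene, 0.38 ± 1.72. Ralyl and Gm9733 did not pass the filter.

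Over the 6 libraries the profiles of Car1 and Car2 differed. Their log2 CPM values correlated at r = 0.920 (Pearson, 6 libraries, a description in which shared numbers and the gradient weigh heavily), and by this measure Car2 ranked 2128th of 8340 genes for likeness to Car1. The genes most like Car1 were Mthfsd (r = 0.999), Zfp410, Rfng, Mrpl52, Dus3l and Smn1 (r = 0.998 for each). All 6 were lower in the CDs library of every pair, by smaller amounts than Car1, as 26.2% of all tested genes were lower in all 3 pairs. They were picked for likeness to Car1 over these same libraries, so their direction largely followed from the picking. Mthfsd, for example, measured 11.5, 11.0 and 7.64 FPKM in CDs 1 to 3 and 14.2, 13.1 and 10.1 FPKM in untreated 1 to 3, with pair differences of -0.34, -0.30 and -0.35. The genes most like Car2 were Sun1 (r = 1.00), Nrf1, Ttll5, Lpcat1, Aqp3 and Uhrf1 (r = 0.999 for each). Sun1 measured 31.0, 28.0 and 17.9 FPKM with CDs and 30.2, 29.9 and 21.1 FPKM untreated. Its first pair was above 0 and 2 pairs were below, as for Car2, which again largely followed from the picking.

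Marker lists of further cell types present in fetal liver were summed in the same libraries, and their part in the carbonic anhydrase values was not tested. Granulocyte markers (10 genes) summed to 380 to 2131 CPM with CDs and 269 to 2066 CPM untreated. Mast cell and basophil markers (8) summed to 37.0 to 149 CPM with CDs and 26.6 to 222 CPM untreated. Megakaryocyte markers (8) lay between 105 and 140 CPM with CDs and between 87.9 and 107 CPM untreated, and hepatocyte markers (9) between 348 and 684 CPM with CDs and between 225 and 510 CPM untreated. Endothelial markers (8) summed to 360 to 491 CPM with CDs and 162 to 221 CPM untreated, and most of these sums was Flt1, a VEGF receptor gene, with 473, 391 and 252 CPM in CDs 1 to 3 and 158, 144 and 133 CPM in untreated 1 to 3. DESeq2 called Flt1 as higher with and without the block. Without Flt1 the endothelial sums were 18.0, 40.4 and 107 CPM in CDs 1 to 3 and 10.5, 17.1 and 87.6 CPM in untreated 1 to 3, so the groups overlapped. Lymphoid markers (7 of 8 in the tables used here) summed to 62.8 to 90.6 CPM with CDs and 58.7 to 85.5 CPM untreated. No marker of these lists was at 0 in all libraries. EdgeR called 0 genes in any of them. DESeq2 with the block called 2 of 10 tested granulocyte, 1 of 8 megakaryocyte, 3 of 9 hepatocyte and 3 of 6 endothelial genes. All of these were called as higher, and 0 genes were called in the other lists. Over all tested genes this fit called 7.69% as higher.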

How the data were processed

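Polyadenylated RNA was read from one end over 50 bases, per the labels' protocols, which name no strand-marking step. Software named in the submitters' processing notes, without role or order, is DESeq2 1.4.5, RSEM 1.2.12, HISAT2 2.0.4 and Bowtie2 2.2.5, and the build is GRCm38.p6. The authors deposited expected counts per gene (30.1% of values not whole), rounded here before any test. They also deposited a normalized table whose values behave as FPKM, used for levels. Genes passing filterByExpr (12283, with 99.9% of the counts) were tested in R 4.3.3 with edgeR 4.0.16, using TMM scaling, the robust quasi-likelihood fit, a model of treatment alone, and Benjamini-Hochberg adjustment over all of them at 0.05. DESeq2 1.42.0, another scaling, no filter, a replicate block, covariates and leaving out libraries were alternatives. Each edgeR SE was derived as the absolute log2 fold change divided by the square root of the F statistic of its test.

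Replicate numbers were taken to pair the libraries. Between same-numbered libraries, deviations from the group means correlated at 0.897, 0.317 and 0.931 for numbers 1 to 3, all above the limit of 0.1. Libraries of different numbers were not compared in this way, and the first principal component alone can raise such correlations. The check therefore cannot show that the numbers mark true pairs, and the SDs over pairs and the blocked fits rest on that assumption. Within each group libraries differed by more than sampling noise (chi-square over its degrees of freedom at least 11.5). Log2 CPM used a prior count of 1. Symbols were matched to RefSeq by Entrez number for 17570 genes (99.3%). Members and lists were chosen with earlier results of these data known. Named genes are both members, the other tested carbonic anhydrases, the 3 lowest and 3 highest of each list, 12 fixed genes (1 of them is not reported here), those near the cluster and the 6 most alike in profile with at least 10 CPM. Others were chosen after their values were seen.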

Additional observations from a re-analysis of the deposited data

How the results depend on the processing

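Car1 was chosen by these same values, so its sign under refits of the same libraries is no test of Car1. The log2 fold change of Car1 stayed below 0 under all 15 alternatives run, from -1.25 to -0.53 with 1 library left out and -0.95 with DESeq2 and the replicate block. It was -0.48 with the first principal component as a covariate (chosen after seeing the data) and -0.46 with the macrophage marker score. The cause was not tested. That of Car2 was 0.0688 with the first and 0.0737 with the second of these covariates and ran from -0.31 to 0.13 with 1 library left out. Relative to late erythroid genes Car2 was at 0.0095 without the pair numbered 3, and from -0.0823 to 0.0095 with 1 pair left out, while Car1 ran from -0.86 to -0.81. Over all genes 0 were called in the main test, 5 with the replicate block, 14 with DESeq2, 1200 with DESeq2 and the block, 57 with the macrophage score and 73 with the first principal component. Late erythroid genes had 0 calls, and 3 with DESeq2 and the block. The block changed no call among the late erythroid genes or the other carbonic anhydrases in edgeR. Low counts limit Car3, Car4 and the other carbonic anhydrases that did not pass the filter.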
